A study of Rattus norvegicus with 4 samples.

Results

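The genes described here encode the proteins of the cytosolic ribosome and the factors that start and extend protein chains on it. They were picked by name: every probe set whose single gene symbol begins with Rpl or Rps and a digit, with Rplp and a digit, with Eif and a digit from 1 to 6 or with Eef and 1 or 2, and Rpsa. The S6 kinase genes, the eIF2 kinase genes and Eif4ebp1 were left out. Where several probe sets carried the same symbol, the one with the highest mean over all arrays stood for the gene. This gave 221 genes from 251 of the 36685 probe sets on the array, of which 14824 carried 1 symbol. They were 181 ribosomal protein genes and 40 factor genes, and both sets are described apart. A further 53 probe sets that matched by one of several symbols were not used.

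RNA came from INS-1, a rat insulinoma line that makes insulin and serves as a model of the pancreatic beta cell. Cultures spent 7 days at 11.2 mM glucose (2 arrays) or at 22.4 mM glucose (2 arrays), and total RNA was amplified, copied into labelled cDNA and hybridized to Affymetrix arrays. The labels name no genotype or other agent that separates the groups, and all arrays come from this single tumour line. The labels number the arrays of a group as replicates 1 and 2 but do not say that they were separate cultures, so the p-values below rest on a spread between arrays that could be technical. Of the beta cell markers, Ins1, Ins2, Iapp and Slc2a2 gave log2 signals from 8.73 to 12.6. Of these 4 Ins2 differed most with glucose, with 10.68 and 10.56 at 11.2 mM and 8.73 and 8.84 at 22.4 mM (log2 difference -1.84, unadjusted p = 1.95e-05, adjusted p = 0.218, limma). Its part in the results below was not tested. The 4 exocrine markers lay between 3.45 and 4.67, under the median of all probe sets of 4.76. Gcg, the glucagon gene of alpha cells, gave 11.1 to 11.2, while Sst, Ppy and Ghrl of the other islet cells gave 4.05 to 4.65. Ptprc of immune cells and Col1a1 of stromal cells gave 3.51 to 5.50.

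A cytosolic ribosome is built from a small subunit, which reads the mRNA, and a large subunit, which joins the amino acids. Initiation factors bring the initiator tRNA, the mRNA cap and the small subunit together, and elongation factors then deliver aminoacyl-tRNAs and move the ribosome along. In mammals the mRNAs of ribosomal proteins and of several elongation factors start with a terminal oligopyrimidine tract, a C followed by an uninterrupted run of C and T (U in the RNA). This tract lets the mTOR pathway control their translation without a change in mRNA level. Beta cells spend much of their protein synthesis on proinsulin, and glucose is known to raise its translation acutely.

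The start sites of genes on which the results below turn are shown because this tract is the regulatory sequence that the ribosomal protein genes share. Each line gives 50 bases of RefSeq sequence (rat assembly GRCr8), 30 before and 20 from the first listed start, 5′ to 3′ on the gene's own strand. Capitals mark the longest run of C and T.
Rpl14, large subunit, chr8:129163590-129163639, plus strand: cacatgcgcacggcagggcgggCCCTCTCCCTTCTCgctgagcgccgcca
Rpl28, large subunit, chr1:78083513-78083562, minus strand: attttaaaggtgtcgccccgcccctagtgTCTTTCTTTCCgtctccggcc
Rplp0, P stalk, chr12:46718371-46718420, minus strand: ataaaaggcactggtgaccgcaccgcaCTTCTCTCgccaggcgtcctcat
Rpsa, small subunit, chr8:128728849-128728898, plus strand: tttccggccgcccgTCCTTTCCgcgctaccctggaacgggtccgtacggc
Rps16, small subunit, chr1:92770628-92770677, plus strand: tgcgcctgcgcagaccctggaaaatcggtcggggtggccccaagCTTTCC
Eef1a1, elongation, chr8:88225050-88225099, minus strand: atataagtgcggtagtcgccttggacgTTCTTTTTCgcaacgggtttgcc
Eif1b, initiation, chr8:129081128-129081177, plus strand: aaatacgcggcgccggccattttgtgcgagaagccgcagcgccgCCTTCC
Eif4ebp2, inhibitor of initiation, chr20:29942903-29942952, minus strand: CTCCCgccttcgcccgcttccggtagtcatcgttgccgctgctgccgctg

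In Rpl14, Rpl28, Rplp0 and Eef1a1 the run spans the listed start, and in Rpsa it ends before it. In Rps16 and Eif1b the longest run is 6 bases at the far end of the window, and in Eif4ebp2 it is 5 bases, with 3 runs of that length of which the first is in capitals. A run of at least 8 consecutive C or T was present in 28 of the 37 ribosomal protein genes with a listed start (75.7%), leaving out numbered copies. Over all 27457 genes of the table the share was 19.9%. On the opposite strand, where such a run reads as A and G, the shares were 8.11% and 20.8%. A listed start that was itself a C followed by 4 pyrimidines was found in 13 of the 37 (35.1%), against 2.63% of all genes. Of the 26 factor genes with a listed start, 10 held the run (38.5%) and 0 had the C start. These matches describe letters in the window and name no site of action.

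Most of the 221 genes differed little between the glucose groups, and none reached 2-fold. In what follows a difference is the mean log2 signal at 22.4 mM minus that at 11.2 mM, so that 1 would be 2-fold. With limma over all probe sets and Benjamini-Hochberg adjustment, 0 of the 181 ribosomal protein genes and 0 of the 40 factor genes passed an adjusted p of 0.05. Over all probe sets the share called was 0.0%. An unadjusted p under 0.05 was found for 5 ribosomal protein genes, 4 higher and 1 lower at 22.4 mM, and for 2 factor genes, 1 each way, where the share of all probe sets was 9.12% (4.36% higher and 4.75% lower, 3344 in all). Both counts changed when any 1 array was left out. They are not given for those fits, since a lone array then stands for its group. The arrays measured RNA of whole cultures, so fewer cells with a transcript and less of it per cell cannot be told apart.

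The ribosomal proteins had a median difference of 0.048, against -0.003 over all probe sets. Of the 181, 110 (60.8%) had a difference above 0, where the share of all probe sets was 49.2%. Both 22.4 mM arrays lay above both 11.2 mM arrays in 53 and below them in 19, and such non-overlap was seen in 40.6% of all probe sets (19.6% higher and 21.0% lower) and in 39.8% of the ribosomal proteins. Leaving out each array in turn moved the median between 0.024 and 0.054. The lowest value came from leaving out replicate 2 of 22.4 mM, and omitting replicate 2 of 11.2 mM gave 0.030. The factors had a median of 0.007, with 21 of 40 above 0, 9 without overlap and higher, and 8 without overlap and lower. They were 29 factor genes, 1 pseudogene and 10 associated proteins or paralogs, among them repressors, a kinase and methyltransferases. Some paralogs were kept among the 29, such as Eif1b, Eif4a2, Eif4e3 and Eif5a2, whereas Eif4e1b was among the 10. The split is thus not one of paralogs against all others. The 29 genes had a median of 0.021, with 17 above 0, and the 10 associated ones -0.065, with 3 above 0. Without these 10 the median was 0.031.

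Single differences were small. Of the ribosomal proteins, 165 of 181 (91.2%) lay within 0.25 of zero, a 1.19-fold change, as did 36 of 40 factors (90.0%) and 78.9% of all probe sets, so that 21.1% of all probe sets differed by more, against 16 ribosomal proteins and 4 factors. The median size of a difference, sign ignored, was 0.087 for the ribosomal proteins, 0.097 for the factors and 0.115 for all probe sets. Size varied with signal, so genes of like signal were set side by side. With a mean signal under 4, the median size was 0.094 for 40 ribosomal proteins and 0.090 for all others. From 4 to 6 it was 0.103 for 43 ribosomal proteins, 0.198 for 2 factors and 0.125 for all others. From 6 to 8 it was 0.093 for 23 ribosomal proteins, 0.167 for 7 factors and 0.153 for all others. The ribosomal proteins were thus below the others in these bins except under 4, and the factors above them. Among probe sets with a mean signal from 8 to 10, the median size was 0.081 for 35 ribosomal proteins, 0.116 for 14 factors and 0.134 for all others. Above 10 it was 0.075 for 40 ribosomal proteins, 0.064 for 17 factors and 0.097 for all others. These medians were not tested.

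**Figure D1:**
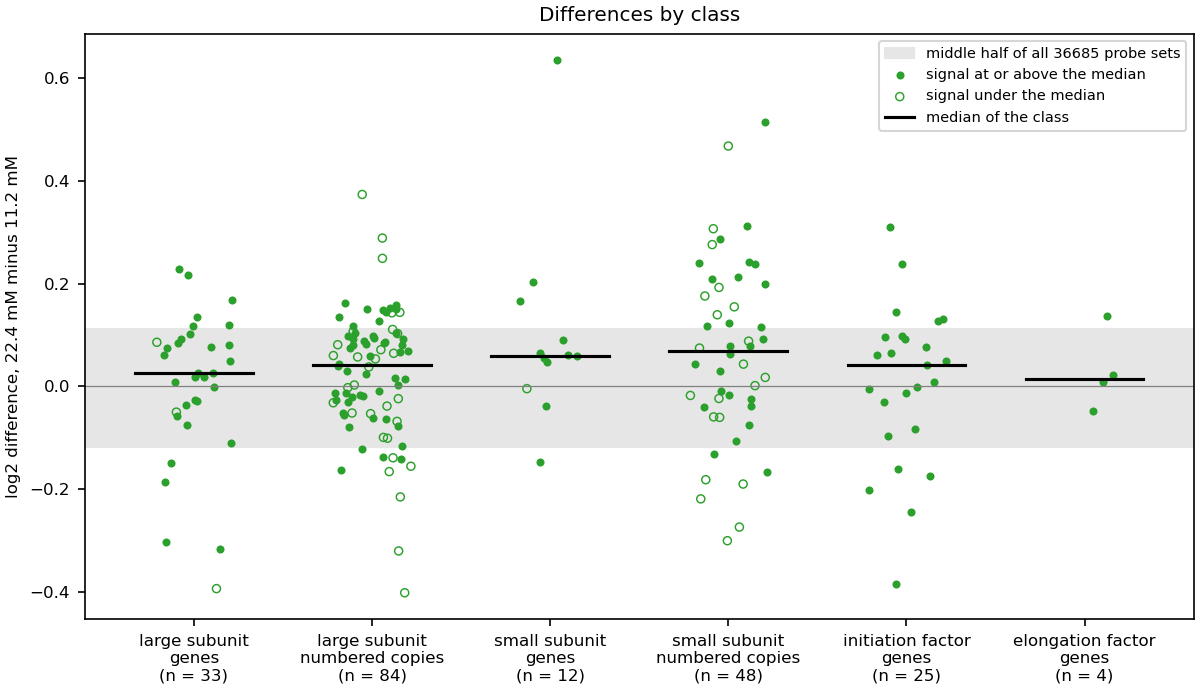
Each point is a gene, placed by its log2 difference (22.4 mM minus 11.2 mM, mean of 2 arrays each) in 6 classes. Black bars are class medians, the grey band is the range between the quartiles of all 36685 probe sets, and open points have a mean signal under the median of 4.76. Class medians lie close to 0, and Rps16 stands highest at 0.63.

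**Figure D2:**
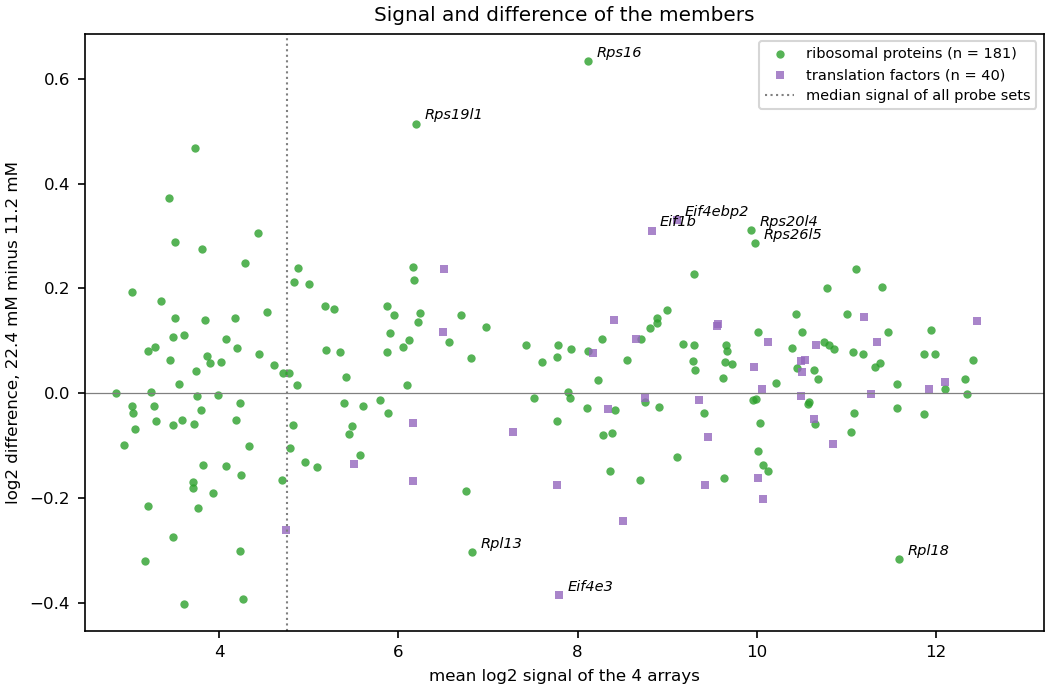
The horizontal axis is a gene's mean log2 signal over 4 arrays and the vertical axis its log2 difference, for 181 ribosomal proteins and 40 factors. The dotted line is the median signal of all probe sets, and genes at or above it with large differences are named. Above a signal of 10 all but 1 of the ribosomal proteins lie within 0.25 of zero, the exception being Rpl18.

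The ribosomal protein set was mixed in kind. It held 45 genes with plain symbols, 132 numbered copies or pseudogenes of them and 4 associated proteins or paralogs. Together with the 1 copy among the factors, RefSeq lists 93 of these copies as protein-coding loci and 35 as pseudogenes. A probe set for a copy may also detect the parent mRNA, because their sequences are near-identical, and probe sequences were not used here, so copies are uncertain and are not independent of their parents. Medians were nearly level, at 0.050 for the 45 genes (29 above 0) and 0.049 for the 132 copies (80 above 0). Of the 45 genes 41 had a signal at or above the median of all probe sets, as had 80 of the 132 copies and all 29 factor genes with plain symbols. Background levels are not given, so a member under that median was not shown to be detected.

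Among proteins of the large subunit, 70 of 119 were above 0, with a median of 0.029. Rpl14 had the largest positive difference among those at or above the median signal, with 9.03 and 9.33 at 11.2 mM and 9.34 and 9.47 at 22.4 mM. The groups did not overlap, but replicate 2 of 11.2 mM lay next to the lower 22.4 mM array, and the difference of 0.23 (standard error, SE, 0.14, unadjusted p = 0.170, adjusted p = 0.694, limma) became 0.081 without replicate 1 of 11.2 mM. Rpl15 gave 5.97 and 6.17 against 6.19 and 6.38, a difference of 0.22 (SE 0.13). Without replicate 1 of 11.2 mM it was 0.12, as it was without replicate 2 of 22.4 mM. Rpl37a (0.17) and the copy Rpl27l2 (0.16) followed, both with overlapping groups. Each rested on 1 array, since Rpl37a gave 0.0089 without replicate 1 of 22.4 mM and Rpl27l2 gave 0.014 without replicate 2 of 11.2 mM.

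Rpl18 had the largest negative difference of the large subunit in the same range of signal. It gave 11.98 and 11.51 at 11.2 mM and 11.49 and 11.37 at 22.4 mM. Replicate 1 of 11.2 mM was high and the other 3 arrays lay close together, so the difference of -0.32 (SE 0.19, adjusted p = 0.679, limma) was -0.079 without that array. Rpl13 gave 7.39 and 6.56 against 6.65 and 6.70. Its groups overlapped, and the difference of -0.30 turned to 0.11 without replicate 1 of 11.2 mM. Rpl28 gave 6.94 and 6.75 against 6.68 and 6.65, without overlap, a difference of -0.19 (SE 0.11). The copy Rpl36Al2 was at 9.84 and 9.58 against 9.56 and 9.54, a difference of -0.16. Without replicate 1 of 11.2 mM, Rpl28 gave -0.093 and Rpl36Al2 gave -0.033.

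Rplp0, the base of the P stalk that recruits the translational GTPases, gave 9.56 and 9.66 at 11.2 mM and 9.69 and 9.65 at 22.4 mM. Its difference of 0.060 (SE 0.099, 95% interval -0.20 to 0.32) lay within the spread of the arrays. Rplp2, a stalk protein bound to it, gave 10.15 and 10.26 against 10.20 and 10.24, a difference of 0.019. Paralog pairs were set side by side as differences, since levels of different probe sets cannot be compared. Rpl3, which reaches toward the peptidyl transferase centre, differed by -0.037, and Rpl3l, its muscle form, by -0.17 from signals of 3.44 to 3.83. Rpl7 differed by -0.11 and Rpl7l1 by -0.011.

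In the small subunit, 40 of 62 proteins were above 0, with a median of 0.062, and 21 were without overlap and higher against 4 lower, where all probe sets gave 49.2% above 0, 19.6% without overlap and higher and 21.0% lower. In all, 40.3% of the 62 had no overlap, against 40.6% of all probe sets. Of the 12 plain genes 9 were above 0, 4 without overlap and higher, and 0 lower, so that 33.3% had no overlap, also against 40.6%. Rps16 had the largest difference of all 221 genes. Its brighter probe set (17614865) gave 7.65 and 7.95 at 11.2 mM and 8.29 and 8.57 at 22.4 mM, a difference of 0.63 (SE 0.16, unadjusted p = 0.013, adjusted p = 0.417, limma), or 1.55-fold. Its other probe set (17614858) gave 6.81 and 6.83 against 6.34 and 6.27, a difference of -0.52 (SE 0.096, unadjusted p = 0.0036, adjusted p = 0.308, limma). The groups did not overlap in either probe set, and the directions were opposite, so the array gives Rps16 no single direction.

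Rpsa, which sits at the mRNA exit side of the small subunit and is also known as the laminin receptor, was higher in both of its probe sets. The brighter gave 11.27 and 11.31 against 11.53 and 11.45, a difference of 0.20 (SE 0.097, adjusted p = 0.614, limma). The dimmer gave 8.35 and 8.52 against 8.84 and 8.91, a difference of 0.44 (SE 0.11, unadjusted p = 0.012, adjusted p = 0.408, limma). In both, the 22.4 mM arrays lay above the 11.2 mM arrays. Rps6, the small-subunit protein phosphorylated by S6 kinases, gave 5.85 and 5.74 against 5.87 and 6.05, a difference of 0.17. Rps29 gave 12.37 and 12.39 against 12.46 and 12.43, without overlap, a difference of 0.064. Rps3a was at 8.56 and 8.31 against 8.34 and 8.23, a difference of -0.15 with overlapping groups. Leaving out each array in turn gave 0.073 to 0.26 for Rps6, lowest without replicate 2 of 22.4 mM, and -0.27 to -0.028 for Rps3a, nearest to zero without replicate 1 of 11.2 mM.

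The copies of small-subunit genes held the other large values. Rps19l1, listed as a pseudogene, gave 5.78 and 6.10 at 11.2 mM and 6.27 and 6.64 at 22.4 mM, a difference of 0.51 (SE 0.18, unadjusted p = 0.041, adjusted p = 0.523, limma). Rps20l4 gave 9.74 and 9.83 against 10.04 and 10.15, a difference of 0.31 (SE 0.10, unadjusted p = 0.032, adjusted p = 0.494, limma). Rps26l5, also listed as a pseudogene, gave 9.71 and 9.95 against 10.03 and 10.21, a difference of 0.29. In each of these 3 copies both 22.4 mM arrays lay above both 11.2 mM arrays. The lowest values with 1 array left out were 0.33 for Rps19l1 (without replicate 2 of 22.4 mM), 0.26 for Rps20l4 and 0.17 for Rps26l5 (without replicate 1 of 11.2 mM). At or above the median signal, the largest negative values among the copies were Rps27l3 (-0.17, but 0.057 without replicate 1 of 11.2 mM), Rps10-ps21 (-0.13, but 0.0035 without replicate 1 of 22.4 mM) and Rps12l4 (-0.11, and -0.045 without replicate 1 of 11.2 mM). Dimmer copies reached -0.30. Of the 5 ribosomal proteins at an unadjusted p under 0.05, the 2 not yet named were dim and were looked up after their values were seen. Rpl26 gave 4.49 and 4.44 against 4.22 and 3.93 (-0.39), and the copy Rpl31l6 gave 3.19 and 3.32 against 3.72 and 3.53 (0.37). The dimmest ribosomal protein, the copy Rps24l3, lay between 2.84 and 2.87 on all arrays.

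**Figure D3:**
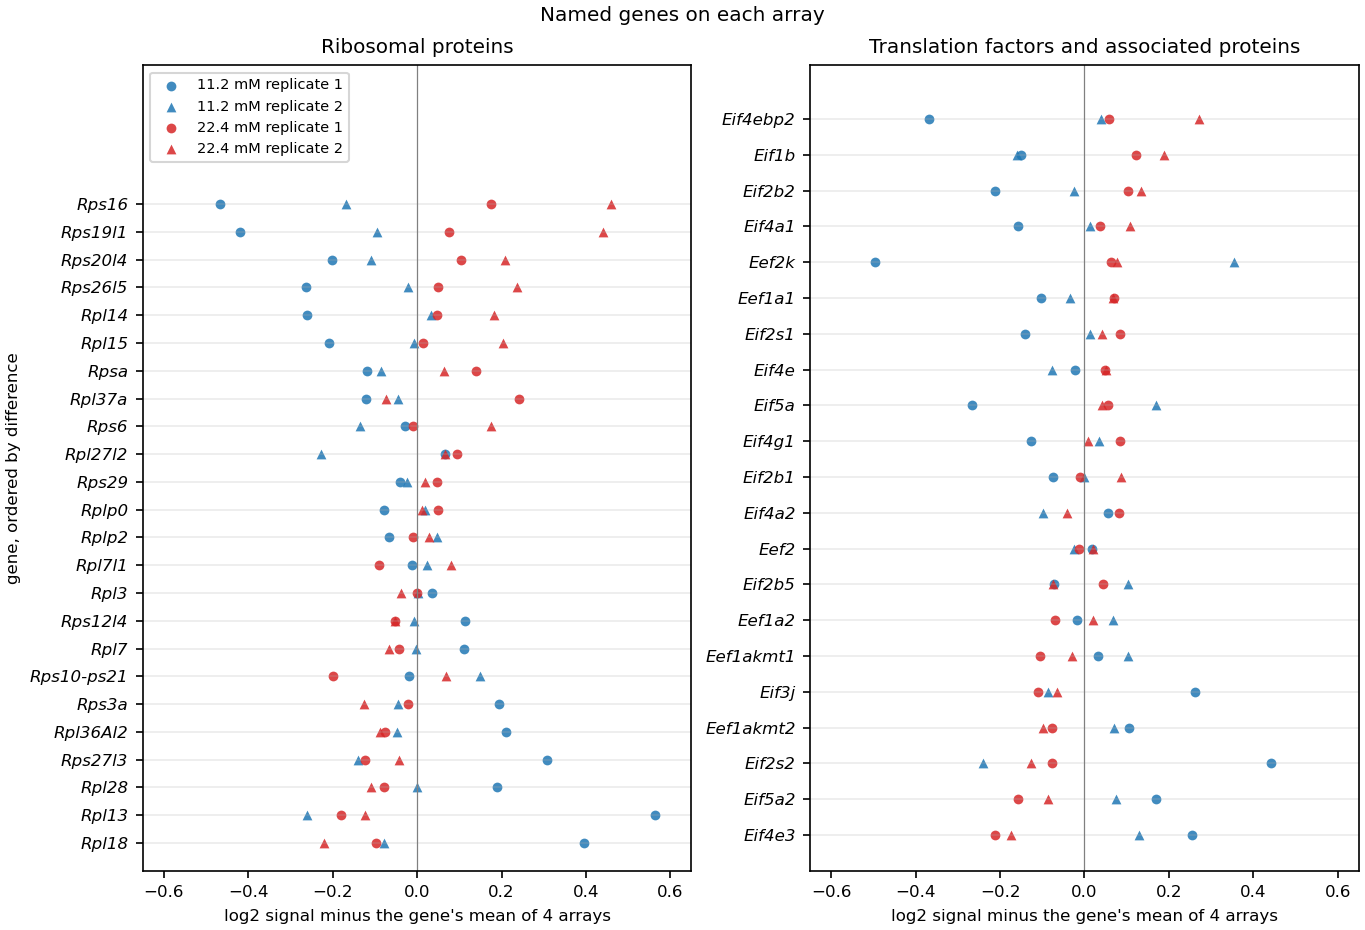
Points are log2 signals of each array minus the gene's mean over 4 arrays, for the 24 ribosomal proteins and 21 factors named by rule with a signal at or above the median. Blue marks 11.2 mM, red 22.4 mM, circles replicate 1 and triangles replicate 2. For Rpl13, Rpl18, Eif2s2 and Eef2k the circle of 11.2 mM lies far from the rest.

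Replicate 1 of 11.2 mM lay farthest from a gene's mean in 89 of the 221 genes (40.3%) and in 24 of the 40 factors (60.0%). The factors differed by a mean absolute log2 value of 0.181 between the 11.2 mM replicates and by 0.072 between the 22.4 mM replicates. Replicate 2 of 11.2 mM differed from the 22.4 mM arrays by 0.109 and 0.121, and replicate 1 by 0.189 and 0.204. Replicate 1 also lay farther off over all probe sets, at 0.246 and 0.242, against 0.188 and 0.195 for replicate 2. There the replicates differed by 0.213 at 11.2 mM and by 0.172 at 22.4 mM. The share in which each array lay farthest was not counted over all probe sets. For the ribosomal proteins the replicates differed by 0.166 at 11.2 mM and 0.134 at 22.4 mM, and arrays of different glucose by 0.128 to 0.177. The distance between the glucose groups was thus of the size of that between replicates. Replicates at 11.2 mM differed by more than 0.4 in 17 of the 221 genes (7.69%, against 14.0% of all probe sets) and replicates at 22.4 mM in 8 (3.62%, against 9.28%). What sets replicate 1 of 11.2 mM apart was not tested.

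Several probe sets measured the same gene in 16 cases, and in 6 of these they differed in sign: Rps16, Rps28, Rpl30, Rpl35a, Rps14 and Rplp2l3. The brighter probe set of Rps28 differed by 0.062 with overlapping groups. The dimmer one gave 3.53 and 3.09 against 2.87 and 2.62 (-0.56). The 6 probe sets of Rpl39 lay between 0.043 and 0.050, the 4 of Rpl21 between 0.000 and 0.050, and the 3 of Rpl41 between -0.055 and -0.028. All 4 probe sets of Rpl18 were lower, from -0.32 to -0.29, but 3 of these hold identical values and replicate 1 of 11.2 mM was the high array in every one. In 4 genes some probe sets held identical values, so their number overstates the independent measurements.

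**Figure D4:**
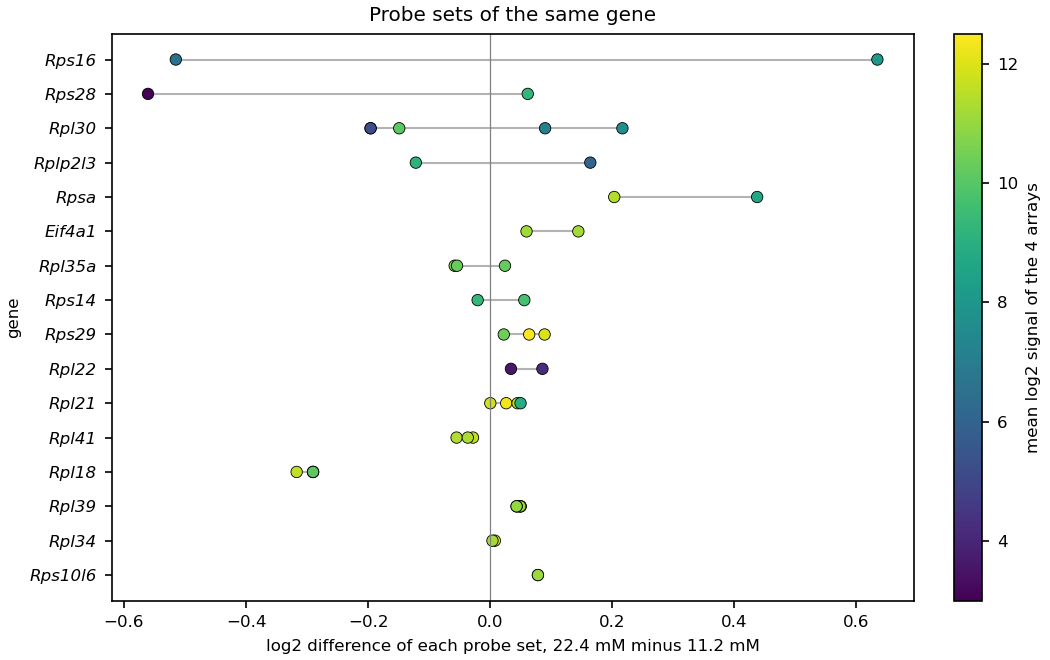
Each point is a probe set, placed by its log2 difference (22.4 mM minus 11.2 mM), with 1 line for each of the 16 genes that have several, and the colour gives the mean log2 signal over 4 arrays. The probe sets of Rps16 lie at -0.52 and 0.63, whereas those of Rpl39, Rpl34 and Rpl41 lie almost together.

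Genes and their numbered copies formed 77 families by symbol, and 31 had at least 2 members at or above the median signal. In 12 of these 31 all such members were above 0, in 2 none was, and in 17 they lay on both sides. The 3 Rps20 copies were higher by 0.24 to 0.31, and 2 of them had no overlap. Rps20l2 gave 10.99 and 10.98 against 11.20 and 11.24. All 5 bright members of the Rpl27a family (0.075 to 0.16) and all 4 of the Rpl27 family (0.070 to 0.16) were above 0. In the Rpl36 family 4 of 5 had no overlap and were higher, with Rpl36 itself at 11.35 and 11.46 against 11.49 and 11.55. Over all probe sets 40.6% had no overlap, and 19.6% had none and were higher. Among the families on both sides, Rpl37a ran from -0.14 to 0.17. The 3 of the Rpl30 family lay between -0.15 and -0.078, all with overlapping groups. Replicate 1 of 11.2 mM was the highest array in each. For Rpl30, Rpl30l2 and Rpl30l3 the 22.4 mM means were 10.0495, 8.24 and 5.40. Replicate 2 of 11.2 mM was below these, at 10.0482, 8.18 and 5.38. Because members of a family share sequence, these counts are no count of separate genes.

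**Figure D5:**
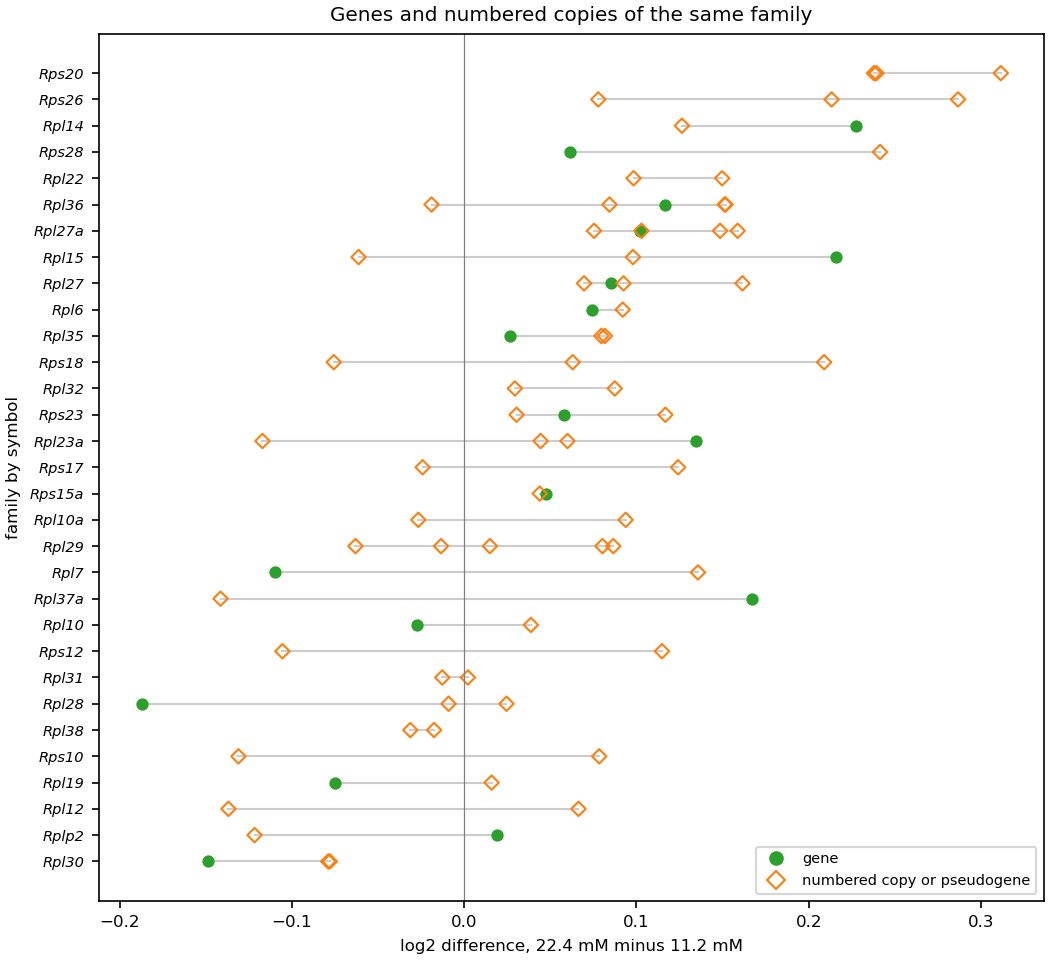
Each line is a family of ribosomal protein genes and copies with at least 2 members at or above the median signal, ordered by median, and points are log2 differences (22.4 mM minus 11.2 mM). Green marks the plain gene and open diamonds the numbered copies or pseudogenes. Rps20 and Rps26 copies lie highest and the Rpl30 family lowest.

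Plain ribosomal protein genes with and without the pyrimidine run overlapped in their differences, and no test was made. The 28 genes with it had a median of 0.049, from -0.30 (Rpl13) to 0.23 (Rpl14), with 20 above 0. The 9 without it had a median of -0.028 and ranged from -0.39 (Rpl26) to 0.63 (Rps16), with 4 above 0. Only the first listed start of each gene was read, and runs under 8 bases were not counted. These 9 genes were therefore not shown to lack the tract. Both extremes without the run are among those described above, Rpl26 as dim and Rps16 as having probe sets of opposite direction.

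Of the 30 members with initiation factor symbols, 25 were initiation factor genes and 5 were associated proteins or paralogs. Differences were above 0 in 14 of the 25 and in 1 of the 5, or 15 in all. The 2 members with an unadjusted p under 0.05 (limma) were Eif4e3 and Eif1b. Eif4e3, an atypical relative of the cap-binding protein eIF4E, gave 8.05 and 7.93 at 11.2 mM and 7.58 and 7.62 at 22.4 mM. The groups did not overlap, and the difference of -0.39 (SE 0.10, 95% interval -0.65 to -0.12, unadjusted p = 0.015, adjusted p = 0.424, limma) ran from -0.45 to -0.32 when each array was left out. Eif1b, a paralog of the factor that guards start-codon choice, gave 8.67 and 8.66 against 8.95 and 9.01. Its difference was 0.31 (SE 0.095, 95% interval 0.061 to 0.56, unadjusted p = 0.025, adjusted p = 0.475, limma), and the gap between the groups exceeded that within either. Eif1ax, which acts beside eIF1 in scanning, gave 9.36 and 9.64 against 9.59 and 9.68, with overlap.

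eIF2 carries the initiator tRNA, and eIF2B recharges it with GTP, a step blocked when the alpha subunit of eIF2 is phosphorylated in stress. Of their 5 measured subunits 3 were above 0. Eif2b2 gave 6.29 and 6.48 against 6.61 and 6.64, without overlap, a difference of 0.24 (SE 0.11, unadjusted p = 0.090, adjusted p = 0.612, limma). Eif2s1, the alpha subunit, gave 9.41 and 9.57 against 9.64 and 9.60, a difference of 0.13. Eif2s2, the beta subunit, gave 10.50 and 9.82 against 9.99 and 9.94. It overlapped, with replicate 1 of 11.2 mM far above the other 3, and its difference of -0.20 became 0.14 without that array. Eif2b1 (0.076) and Eif2b5 (-0.031) overlapped as well. Without replicate 1 of 11.2 mM, Eif2b2 gave 0.14 and Eif2s1 gave 0.050. Eif2s3, Eif2b3 and Eif2b4 were not measured by a probe set with a single symbol.

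The eIF4 group recruits mRNA through its cap. Eif4e, the cap-binding protein itself, gave 10.10 and 10.04 against 10.17 and 10.17, without overlap, a difference of 0.098 (SE 0.095). Eif4a1, the helicase that unwinds mRNA leaders, gave 11.03 and 11.20 against 11.23 and 11.30 (difference 0.14) in its brighter probe set. Its other probe set, of nearly the same signal, gave 11.01 and 11.24 against 11.17 and 11.21 (0.060), with overlap. The paralog Eif4a2 differed by 0.041. Eif4g1, the scaffold, differed by 0.092 with overlap. Without replicate 1 of 11.2 mM, the brighter probe set of Eif4a1 gave 0.059 and Eif4g1 gave 0.012. Eif4e1b, known from oocytes, was dim at 4.96 and 4.80 against 4.59 and 4.63 (-0.26). Eif4ebp2, a repressor that holds eIF4E away from the scaffold, gave 8.73 and 9.14 against 9.16 and 9.37. Its difference of 0.33 (SE 0.18, adjusted p = 0.654, limma) was the largest positive one among the factors. Without replicate 1 of 11.2 mM, however, it was 0.13. The genes of like name did not share this rise. Eif4ebp3 differed by -0.17 without overlap, and Eif4ebp1, counted below among the regulators, by 0.008 with overlap.

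The 7 measured subunits of eIF3, the scaffold of the initiation complex, ran from -0.17 to 0.064, with a median of -0.002. Eif3d gave 10.06 and 10.05 against 10.06 and 10.06, and Eif3m differed by -0.002. Eif3j, a loosely bound subunit, gave 9.68 and 9.34 against 9.31 and 9.36. Its difference of -0.17 became 0.00015 without replicate 1 of 11.2 mM. Eif5b, the GTPase that joins the subunits, gave 10.04 and 10.13 against 9.98 and 9.87, without overlap (-0.16). Eif5a, the hypusine-bearing factor that now counts as an elongation factor despite its name, gave 11.07 and 11.51 against 11.40 and 11.38 (0.097, and -0.12 without replicate 1 of 11.2 mM). Its paralog Eif5a2 gave 8.67 and 8.58 against 8.35 and 8.42, without overlap, a difference of -0.24 (SE 0.10, unadjusted p = 0.063, adjusted p = 0.567, limma).

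The 10 members with elongation factor symbols were 4 elongation factor genes, of which 3 were above 0, 5 associated proteins, of which 2 were, and the pseudogene Eef1a1-ps7 (0.12). None of the 10 had an unadjusted p under 0.05 with limma, and 0 an adjusted p under 0.05. Eef2, which moves the ribosome by a codon, gave 11.94 and 11.89 at 11.2 mM and 11.91 and 11.94 at 22.4 mM. Its difference of 0.007 had a 95% interval from -0.24 to 0.25. Eef1a1, which brings aminoacyl-tRNA, gave 12.36 and 12.43 against 12.53 and 12.53, without overlap, a difference of 0.14 (SE 0.095, adjusted p = 0.730, limma). Eef1a2, its form in muscle and nerve, differed by -0.049, and Eef1g, a subunit of its exchange factor, by 0.021.

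Eef2k, the kinase that inactivates eEF2, gave 7.91 and 8.76 against 8.47 and 8.48. The 11.2 mM arrays lay on either side of both 22.4 mM arrays, and the difference of 0.14 became -0.28 without replicate 1 of 11.2 mM. Eef1akmt2, a lysine methyltransferase of eEF1A, gave 7.87 and 7.84 against 7.69 and 7.67, without overlap, a difference of -0.18 (SE 0.094, adjusted p = 0.652, limma). Eef1akmt1, another, gave 5.53 and 5.60 against 5.39 and 5.47 (-0.13).

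Other genes of the pathway were counted from lists chosen for their known roles. Of 44 ribosome biogenesis genes 33 were measured, with a median difference of -0.033, 11 above 0 and 22 below, and 5 without overlap and higher against 8 lower, where all probe sets gave 19.6% and 21.0%. Gnl3, a nucleolar GTPase, gave 8.99 and 8.52 against 8.47 and 8.43 (-0.31), with replicate 1 of 11.2 mM far above the rest. Ltv1, needed to mature the small subunit, gave 7.50 and 7.46 against 7.08 and 7.23, a difference of -0.32 (SE 0.10, unadjusted p = 0.029, adjusted p = 0.484, limma), and was the only gene of the list at an unadjusted p under 0.05. Of 28 regulators of translation 22 were measured, with a median of 0.003, 12 above 0, and 2 higher and 1 lower at an unadjusted p under 0.05. Over all probe sets 9.12% passed that level with limma, 4.36% higher and 4.75% lower.

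The regulator with the lower value was Mknk1, a kinase of eIF4E, at 8.45 and 8.02 against 7.64 and 7.58 (-0.63, unadjusted p = 0.016, adjusted p = 0.429, limma). Mknk2, of like name, went the other way without overlap, at 7.54 and 8.16 against 8.19 and 8.29 (0.39). Its replicate 1 of 11.2 mM lay far below the rest. Rps6ka2, a kinase of the RSK family, gave 9.07 and 8.17 against 7.92 and 7.98 (-0.67), with replicate 1 of 11.2 mM far above the rest. Both with higher values at an unadjusted p under 0.05 (limma) were looked up after the count was seen. Rps6ka6, of the same kinase family, gave 6.02 and 6.30 against 6.67 and 6.67 (0.51). Eif2ak3, the kinase PERK that phosphorylates eIF2 in endoplasmic reticulum stress, gave 8.22 and 7.98 against 8.54 and 8.43 (0.38, unadjusted p = 0.031, adjusted p = 0.490, limma). Of 13 genes of termination, recycling and poly(A) binding 8 were measured, 4 above 0 and 4 below, and 0 had an unadjusted p under 0.05. Paip2, which restrains poly(A)-binding protein, differed by -0.23, and Denr, which acts in recycling and reinitiation, by -0.17. Rack1, a small-subunit protein with another kind of symbol, gave 11.04 and 11.07 against 11.13 and 11.11 (0.064).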

How the data were processed

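The authors deposited 1 table with a log2 value for 36685 probe sets on each of 4 arrays. The values ran from 2.23 to 13.2, from which base 2 was taken, since no source states it. How the arrays were background-corrected and normalized, and with which software, is not given in the sources used. Array medians lay between 4.73 and 4.80, and no further normalization or filter was applied. With 4 arrays, a log2 difference had a median standard error of 0.12, which limits the precision.

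Names came from the platform annotation. Of the members, 216 were found by Entrez identifier in RefSeq GRCr8, with 0 symbols differing. The fit used limma 3.58.1 under R 4.3.3 (functions lmFit and eBayes, two-sided, 2 residual degrees of freedom) on all probe sets, with Benjamini-Hochberg adjustment at 0.05. The code was tested on simulated data. Members and lists were chosen with earlier results of these data known. Named genes were the 4 largest differences each way of the large subunit, small subunit and initiation factors, and the 2 largest of the elongation factors, at or above the median signal of 4.76. Added to these were genes of key roles, paralog pairs, the brightest and dimmest of each kind, and up to 2 of each other list. Lists were described by counts and medians, with no test. Alternatives varied normalization, the probe sets tested, the variance model, the replicate block and each array.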

Additional observations from a re-analysis of the deposited data

How the results depend on the processing

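Of 48 named genes, 0 reached an adjusted p of 0.05 in any setting, and 34 kept their sign in all of them. With only probe sets of 1 symbol tested, 62 probe sets passed (43 higher, 19 lower, 0 members), against 0 over all. The ribosomal protein median of 0.048 was 0.056 with arrays centred on their medians and 0.060 over members at or above the median signal, and lay between 0.024 and 0.054 without 1 array. The factor median of 0.007 was 0.031 without the 10 members classed as associated proteins or paralogs, and 0.011 to 0.020 without 1 array. At an unadjusted p under 0.05 (limma), 3344 of 36685 probe sets, 5 ribosomal proteins and 2 factors passed in the main fit. With single-symbol probe sets, 1912 of 14824 probe sets passed, with 8 ribosomal proteins and 4 factors. With the dimmer probe sets left out, 2360 of 18344 passed, with 3 ribosomal proteins. A variance trend gave 3429 of 36685, with 8 ribosomal proteins. Both counts of members also changed without 1 array. In those fits a lone array was assumed to vary like the other group. Leaving out numbered copies and pseudogenes, a setting chosen after the data were seen, gave medians of 0.048 for the ribosomal proteins and 0.0074 for the factors.

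The labels do not say whether the replicate numbers pair the arrays. Replicate 1 minus replicate 2 at 11.2 mM had a correlation of -0.078 with the same at 22.4 mM, over 36685 probe sets. This value cannot exclude pairing, since it rests on 1 such difference per group. With the replicate number as a block, 4 ribosomal proteins and 1 factor had an unadjusted p under 0.05 (limma). In that fit 2958 of the 36685 probe sets did. The ribosomal protein median stayed at 0.048.

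Near-zero Eef2 turned to -0.013 with cyclic loess, and Rps24l3 to -0.0070 with quantile normalization and -0.0074 with cyclic loess. Without 1 array, 14 genes changed sign at least once: Eef2 (-0.014 to 0.028), Eef2k (-0.28 to 0.57), Eif2b5 (-0.12 to 0.057), Eif2s2 (-0.54 to 0.14), Eif3j (-0.35 to 0.00015), Eif4a2 (-0.035 to 0.12), Eif5a (-0.12 to 0.31), Rpl13 (-0.72 to 0.11), Rpl3l (-0.35 to 0.012), Rpl7l1 (-0.096 to 0.074), Rplp2 (-0.037 to 0.075), Rps10-ps21 (-0.27 to 0.0035), Rps24l3 (-0.011 to 0.014) and Rps27l3 (-0.39 to 0.057).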
